A study of Mus musculus with 10 samples.

Results

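Chd3, Chd4 and Chd5 encode the ATPases of the nucleosome remodeling and deacetylase (NuRD) complex, and these 3 genes of the 31053 in the count tables were followed in mouse cortex at embryonic day E16.5. They were taken by name, not by their values, and were read in each embryo and in each cell class that marker genes define, from radial glia to the neurons of the cortical layers. Cells with at least 1000 unique molecular identifiers (UMIs) and at most 10% mitochondrial UMIs were used. The level of a gene is given in CPM, its UMIs per 1000000 UMIs when both are summed over the cells of a class in 1 embryo.

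There were 10 embryos, each with its own 10X Genomics 3′ library from the dissected cortex: 3 wild-type (WT), 4 heterozygous Gatad2b stop/+ (Het) and 3 homozygous Gatad2b stop/stop (KO) embryos. The stop allele is a germline trapping cassette in an intron of Gatad2b on a C57BL/6N-Atm1Brd background, present in every cell of the embryo, and exons downstream of it are kept, so that 3′ UMIs of Gatad2b need not disappear. The paper's results call WT and Het embryos littermates, but which embryos shared a litter was not given, and p-values measure the spread between these embryos. The cells kept were 65779 of 80071 barcodes, with 82872641 to 123737385 UMIs per embryo and a median of 10795 to 17077.5 UMIs per cell.

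NuRD joins a chromatin remodeler, which slides and ejects nucleosomes with the energy of ATP, to a histone deacetylase. Each complex holds a single remodeler, Chd3, Chd4 or Chd5, and Gatad2a or Gatad2b bridges it to the Mbd, Mta, Rbbp and Hdac subunits. In the developing cortex Chd4 is known as the remodeler of proliferating progenitors, whereas Chd3 and Chd5 are taken up as neurons are born and migrate, and Chd5 is otherwise known as a neuronal gene and a tumor suppressor.

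Gatad2b itself followed the labels. It was at 141.7, 132.1 and 137.5 CPM in the WT embryos, at 93.1, 88.1, 89.3 and 96.6 CPM in the Het embryos, and at 49.5, 51.8 and 58.2 CPM in the KO embryos. The 3 groups did not overlap, and the log2 fold change was -0.54 ± 0.045 (SE) in Het and -1.32 ± 0.050 in KO against WT (edgeR quasi-likelihood test, adjusted p = 0.000756 and 1.11e-07).

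The library names carry 2 prefixes whose meaning is not given. WT 1 to 3 and Het 4 share the first prefix, and Het 1 to 3 and KO 1 to 3 share the second, so that a difference between KO and WT cannot be told apart from one between prefixes except through Het 4. Het 4 stood apart from Het 1 to 3. It had the highest Chd3 of the 4 Het embryos in radial glia-like, subventricular zone-like and both layer-like classes and in all cells, and the highest Chd4 as well, at 374.1 CPM in all cells against 295.7 to 308.0 CPM. The median share of mitochondrial UMIs per cell split the same way, at 3.72% to 3.97% in WT and 3.60% in Het 4 against 4.34% to 4.66% in Het 1 to 3 and 4.31% to 4.58% in KO, and its part in the differences between genotypes was not tested. Comparisons between genotypes that were called are therefore also given with the prefix as a covariate or within a prefix. The covariate is set by Het 4 against Het 1 to 3 alone. How many of the 17647 genes tested over all cells were called with the covariate is given in the last paragraph. The shares called by class with it are not given. For Gatad2b the covariate gave -0.49 in Het and -1.26 in KO, both called.

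Cells fell into 24 clusters, which gave 11 classes with 20 or more cells in each of the embryos, while 4 clusters with 10289 cells stayed unnamed. Unnamed cluster 17, with 1376 cells, was led by Ttr and held the cell cycle genes Top2a and Mki67. Its second-best score was for the subventricular zone, 2.225, and its cells are not in the subventricular zone-like class. Unnamed clusters 5 and 7, with 4283 and 2976 cells, were led by Fam19a1 and Tfap2d and by Crym and Grp. The names are marker-based and the rule for them was set after cluster markers had been seen. The subventricular zone-like cluster was led by Eomes and Neurog2, the layer II-IV-like clusters by Unc5d and Inhba, and the layer V-VI-like clusters by Fezf2, Ldb2, Hs3st4 and Tle4. The radial glia-like cluster was led by Fabp7, Aldoc, Tnc and Hes5, but its mean marker score was higher for glial progenitors, 4.27, than for radial glia, 3.216. The cluster called ganglionic eminence-like had cell cycle genes as its top 10. The levels per class rested on 121 to 218 radial glia-like, 193 to 379 subventricular zone-like, 1284 to 2390 layer II-IV-like and 695 to 1269 layer V-VI-like cells per embryo.

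In WT embryos the 3 ATPases had 3 different orders across the classes. Chd3 was low in radial glia-like cells and high in neurons, Chd4 was highest in subventricular zone-like cells and lower in both layer classes, and Chd5 was near the level of red blood cells in progenitors and high in neurons. Of the 3 genes, each of the 6 comparisons between the 4 pallial classes of WT embryos called 1 to 3. Those comparisons called 30% (layer V-VI against layer II-IV) to 67.5% (layer V-VI against radial glia) of the 13824 genes tested, so a called gene was common.

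**Figure D1:**
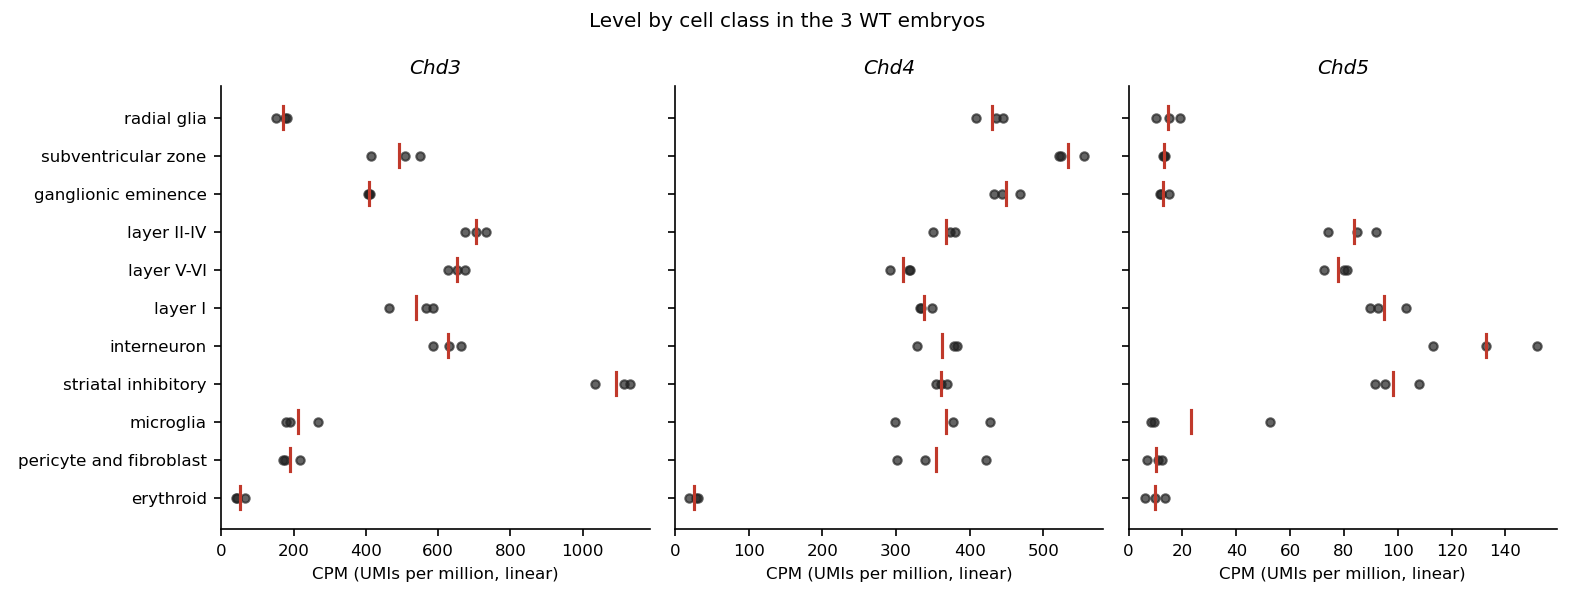
Levels of Chd3, Chd4 and Chd5 in CPM (horizontal axes, linear, a panel for each gene) in the 11 cell classes of the 3 WT embryos (rows). Each point is an embryo and each red bar the mean. Mean Chd3 goes from 170 CPM in radial glia-like cells to 703.3 CPM in layer II-IV-like cells, Chd4 peaks at 533 CPM in subventricular zone-like cells, and Chd5 goes from 13.1 CPM there to 83.7 CPM in layer II-IV-like cells.

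Chd3, whose protein has been tied to late neuronal migration and layer identity, was at 181.1, 151.9 and 177.0 CPM in the radial glia-like cells of WT 1 to 3. In subventricular zone-like cells, the intermediate progenitors that Eomes marks, it was at 550.2, 414.8 and 509.2 CPM. It was at 731.7, 673.9 and 704.3 CPM in layer II-IV-like neurons and at 673.0, 628.3 and 652.5 CPM in layer V-VI-like neurons. No WT embryo overlapped between radial glia-like and subventricular zone-like cells, nor between those and layer II-IV-like neurons. The log2 rise was 1.57 ± 0.084 (SE) from radial glia-like to subventricular zone-like cells (adjusted p = 1.65e-17, 53.6% of genes called) and 0.61 ± 0.076 from there to layer II-IV-like neurons (adjusted p = 1.7e-08, 51.6% called). Layer V-VI-like neurons were below layer II-IV-like neurons in each WT embryo, but the log2 difference was not called, at -0.12 ± 0.073 (adjusted p = 0.219, 30% called). Outside the pallial lineage Chd3 was highest of all 11 classes in striatal inhibitory-like neurons, at 1093 ± 51.2 CPM (SD, n = 3), above every other class in each WT embryo.

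Chd4, the remodeler found in NuRD of most tissues, ranged from 310 to 533 CPM over these classes. Its levels in WT 1 to 3 were 444.9, 409.0 and 435.3 CPM in radial glia-like cells and 554.3, 520.4 and 524.2 CPM in subventricular zone-like cells. They were 379.3, 350.6 and 373.2 CPM in layer II-IV-like neurons and 319.5, 291.7 and 318.1 CPM in layer V-VI-like neurons. The classes did not overlap. Chd4 was higher in subventricular zone-like than in radial glia-like cells by 0.36 ± 0.067 log2 (adjusted p = 2.88e-05). At the finer clustering resolution of 0.8 that difference was 0.21 and was not called. The classes there were not the same. The subventricular zone-like one also held clusters led by Ube2c (758 cells) and Hist1h1b (368 cells), and the radial glia-like one a cluster led by Tesc (726 cells). Against subventricular zone-like cells it was lower in both layer classes, with a log2 difference of -0.44 ± 0.062 in layer II-IV-like (adjusted p = 1.5e-07) and -0.70 ± 0.062 in layer V-VI-like neurons (adjusted p = 7.43e-12, 58% called). Against radial glia-like cells the difference was -0.34 ± 0.062 in layer V-VI-like neurons (adjusted p = 9.56e-06) and -0.09 ± 0.062 in layer II-IV-like neurons (adjusted p = 0.199, 66% called). The 0.25 log2 limit on the size of a call was barely passed between the 2 layer classes, at -0.25 ± 0.056 (adjusted p = 0.000342), and other normalizations put it under the limit.

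Chd5 separated neurons from progenitors. In WT 1 to 3 it was at 19.2, 15.1 and 10.1 CPM in radial glia-like cells, from 53, 71 and 37 UMIs, and at 12.8 to 13.5 CPM in subventricular zone-like cells, from 34 to 42 UMIs. Erythroid-like cells, which should lack the gene and can hold it as free RNA, gave 9.8, 6.0 and 13.4 CPM and overlapped with both progenitor classes. The levels in neurons were 74.1, 92.1 and 84.8 CPM in layer II-IV-like and 72.5, 80.1 and 81.3 CPM in layer V-VI-like cells, far above every progenitor value. Chd5 was 2.76 ± 0.15 log2 higher in layer II-IV-like and 2.66 ± 0.15 log2 higher in layer V-VI-like neurons than in subventricular zone-like cells (adjusted p = 2.96e-17 and 9.12e-17), while the 2 progenitor classes differed by -0.09 ± 0.25 (adjusted p = 0.808). The highest level of the 11 classes was in interneuron-like cells, at 113.2, 151.9 and 132.9 CPM, which did not overlap with the next class, striatal inhibitory-like neurons.

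The shares of cells with a UMI were also read. With every cell thinned to 3000 UMIs, Chd3 was found in 28.2% ± 1.11 (SD, n = 3) of radial glia-like, 68.1% ± 5.34 of subventricular zone-like and 85.3% ± 1.03 of layer II-IV-like cells of WT embryos. Chd4 was found in 67.2% ± 1.82, 75.3% ± 1.81 and 63.7% ± 2.12 of them. In erythroid-like cells Chd3 was found in 7.62% ± 2.88 and Chd4 in 5.28% ± 2.32. Chd5 was found in 3.53% ± 0.743 and 3.69% ± 0.251 of the progenitors, in 20.6% ± 1.67 of layer II-IV-like neurons and in 1.5% ± 0.439 of erythroid-like cells. Thinning left out 21 radial glia-like, 3 subventricular zone-like, 29 layer II-IV-like and 148 erythroid-like WT cells. Without thinning, Chd5 was found in 16.7%, 14.5%, 57.7% and 6.71% of these classes, at median depths of 16454, 12724, 14925.5 and 8442.5 UMIs per cell.

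In the summed UMIs of the 3 genes, Chd4 had a lower share in layer neurons than in progenitors, and Chd3 a higher one. Chd4 made up 70% ± 1.03 (SD, n = 3) of these UMIs in radial glia-like and 51.5% ± 2.92 in subventricular zone-like cells of WT embryos. It made up 31.8% ± 0.383 in layer II-IV-like and 29.8% ± 0.563 in layer V-VI-like neurons. Chd3 went from 27.6% ± 1.1 to 47.2% ± 3.01, 60.9% ± 0.74 and 62.7% ± 0.592 over the same classes. Chd5 stayed under 3% in progenitors and made up 7.27% ± 0.998 and 7.52% ± 0.627 in the layer classes. The shares are of 3′ UMIs and are compared across classes of a gene, not between genes.

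**Figure D2:**
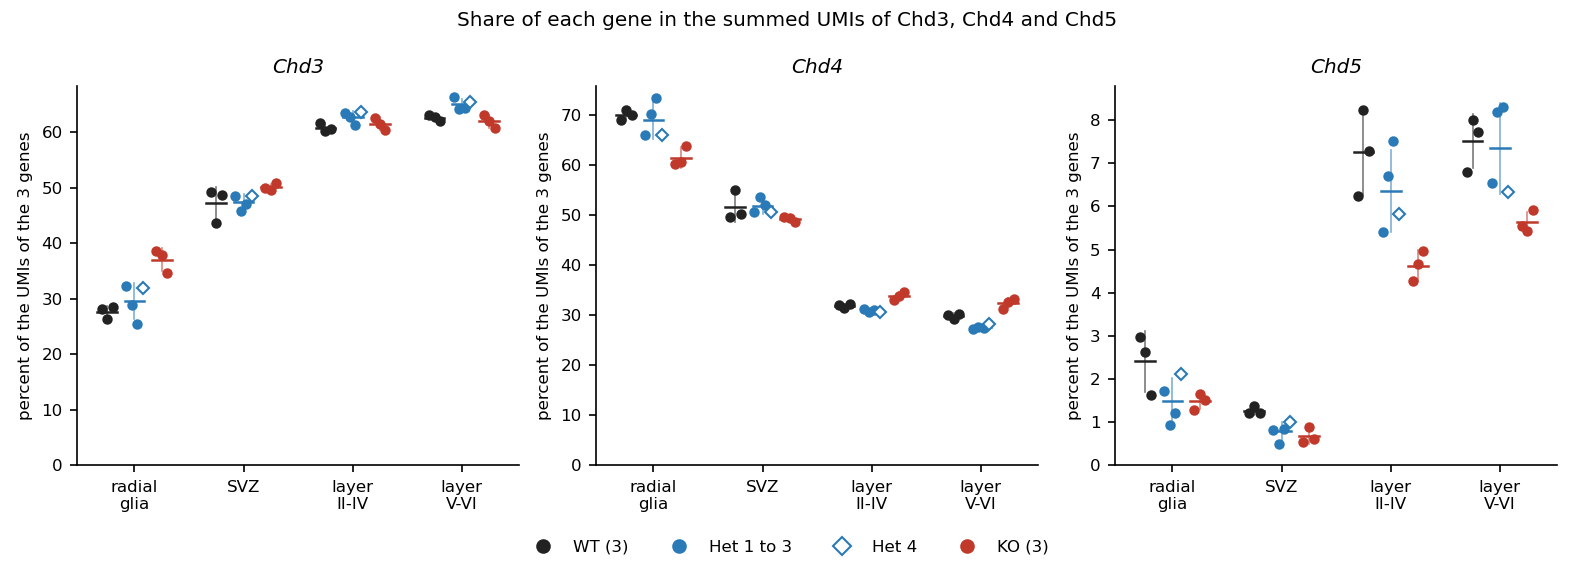
Share of each gene in the summed UMIs of Chd3, Chd4 and Chd5 (vertical axes, percent, a panel for each gene) in the 4 pallial classes, with SVZ for subventricular zone. Points are embryos coloured by genotype, with Het 4 as an open diamond, and lines are the mean and SD of a group. In WT embryos the mean Chd4 share goes from 70% in radial glia-like cells to 29.8% in layer V-VI-like neurons.

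The 3 loci are on different chromosomes of GRCm38. Chd3 (ENSMUSG00000018474) lies at chr11:69343273-69369406 on the minus strand, Chd4 (ENSMUSG00000063870) at chr6:125095981-125130591 on the plus strand and Chd5 (ENSMUSG00000005045) at chr4:152338651-152390194 on the plus strand. No stretch of 31 bases in the last 500 bases of a transcript is shared by any pair of them, so the 3′ reads of the paralogs can be told apart. The promoter windows of Chd4 and Chd5, chr6:125095731-125096030 and chr4:152338401-152338700, from 250 bases before to 50 bases after a RefSeq start (GRCm38.p6, plus strand), are shown because the 2 genes take opposite courses from subventricular zone-like cells to layer neurons. Capitals mark CANNTG, the E-box letters that proneural factors such as Neurog2 read, searched on both strands.
Chd4: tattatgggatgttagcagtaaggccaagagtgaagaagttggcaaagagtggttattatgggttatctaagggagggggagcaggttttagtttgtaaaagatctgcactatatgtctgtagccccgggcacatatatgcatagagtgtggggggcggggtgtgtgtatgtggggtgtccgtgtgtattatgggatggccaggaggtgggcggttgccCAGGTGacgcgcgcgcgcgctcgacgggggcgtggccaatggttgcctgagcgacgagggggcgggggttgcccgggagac
Chd5: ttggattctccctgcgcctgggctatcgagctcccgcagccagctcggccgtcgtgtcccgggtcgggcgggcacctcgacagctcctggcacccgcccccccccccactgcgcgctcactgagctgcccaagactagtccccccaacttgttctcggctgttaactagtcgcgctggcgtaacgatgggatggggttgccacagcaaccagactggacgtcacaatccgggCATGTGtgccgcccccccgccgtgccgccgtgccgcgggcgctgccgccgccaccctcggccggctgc
Each window holds the E-box letters at 1 place, and 72.3% of the 32851 promoter windows hold them at least once. The letters there are CAGGTG for Chd4. For Chd5 they are CATGTG. Neither holds TATAAA, which 13.6% of windows hold, and Chd4 holds a CCAAT, as 37.4% do. The Chd5 window is 70.7% G or C with 32 CG pairs, more than 90.5% of windows, and the Chd4 window is 57% G or C with 17 CG pairs, more than 68.6%. The window of a second RefSeq start of Chd4, chr6:125095913-125096212, is 68.3% G or C with 29 CG pairs, more than 87.1%, so the contrast with Chd5 depends on the start. Binding was not measured, and the letters are a description.

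The genes whose mean levels in WT embryos were most like those of each ATPase over the 11 classes differed as well. For Chd3 they were Fnbp1l, Dlgap4, Polb, Rbfox2 and Usp22, with Pearson r of log2(CPM + 1) from 0.976 to 0.98. For Chd4 they were 0610030E20Rik, Drg2, Eif3l, Mrpl24 and Eif3g, with r from 0.994 to 0.997. For Chd5 they were Lonrf2, Gpr27, Shank1, Syt1 and Fam131c, with r from 0.973 to 0.981, among them the synaptic genes Shank1 and Syt1. Over the same classes Chd3 and Chd5 had r = 0.772, Chd3 and Chd4 r = 0.698 and Chd4 and Chd5 r = 0.259. These are descriptions over 11 classes that share 3 libraries, among 12148 genes, and the erythroid-like class was low for all 3 ATPases.

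Between genotypes, Chd5 was the only ATPase called in KO against WT over all cells. It was at 73.7, 84.3 and 83.6 CPM in WT 1 to 3, at 53.1, 63.5, 69.4 and 76.5 CPM in Het 1 to 4, and at 51.5, 49.5 and 58.6 CPM in KO 1 to 3. The KO embryos were below every WT embryo, and the Het embryos overlapped with both. The log2 change of Chd5 in KO was -0.56 ± 0.105 (adjusted p = 0.00229), in a comparison that called 24.5% of 17647 genes, 1 of the 3 ATPases among them. In Het the change was -0.26 ± 0.098 (adjusted p = 0.123), in a comparison that called 2.98% of genes and none of the 3. With the prefix as a covariate the KO change was -0.28 ± 0.156 (adjusted p = 0.298) and was no longer called. In these sums over all cells, fewer cells of a type and less RNA per cell cannot be told apart. With the shares of clusters fixed to those of WT the change was -0.35 ± 0.096 (limma, adjusted p = 0.0212).

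**Figure D3:**
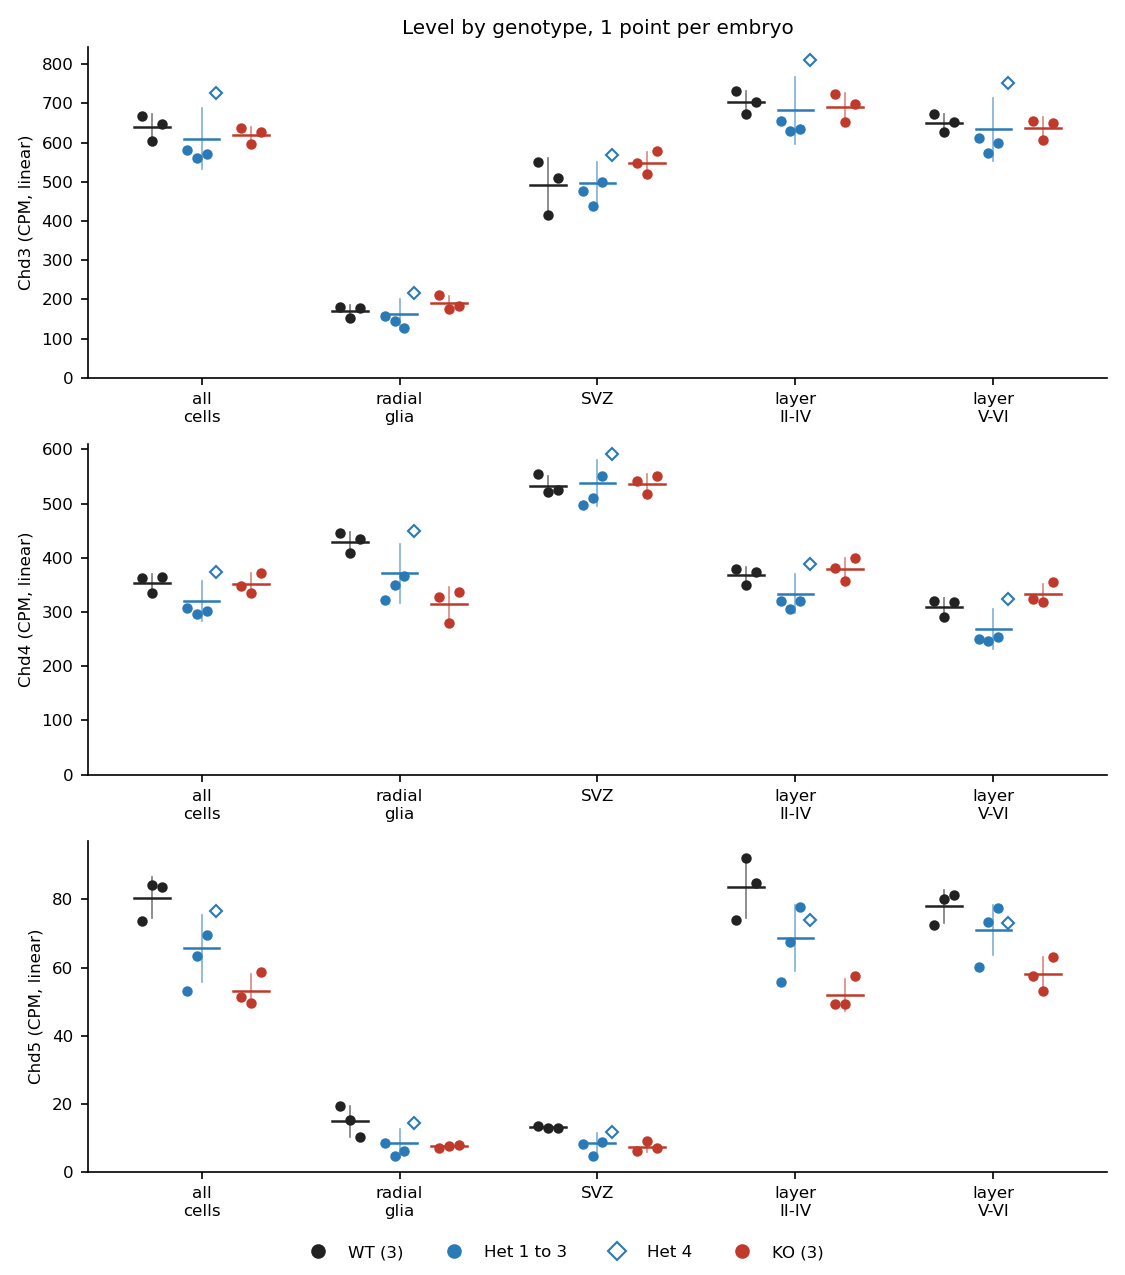
Levels of Chd3, Chd4 and Chd5 in CPM (vertical axes, linear) over all cells and in the pallial classes, with SVZ for subventricular zone. Points are embryos coloured by genotype, lines are the mean and SD of a group, and Het 4 is an open diamond because it shares the library prefix of WT. In layer II-IV-like neurons the KO embryos have Chd5 at 49.2 to 57.4 CPM, below the 74.1 to 92.1 CPM of WT.

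In layer II-IV-like neurons Chd5 was at 74.1, 92.1 and 84.8 CPM in WT, at 55.7, 67.5, 77.7 and 74.0 CPM in Het 1 to 4, and at 49.2, 49.3 and 57.4 CPM in KO. KO and WT did not overlap, and KO overlapped with Het 1 alone. The change in KO was -0.65 ± 0.104 against WT (adjusted p = 0.000212, 30.6% of genes called) and -0.40 ± 0.098 against Het (adjusted p = 0.0131, 11.5% called). Within the second prefix, which holds Het 1 to 3 and the KO embryos, it was -0.36 ± 0.093 (adjusted p = 0.018, 12.3% called). With the prefix as a covariate the change against WT was -0.51 ± 0.173 (adjusted p = 0.0561). The call against Het was lost without KO 1 or without KO 2, at -0.37 and -0.36.

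In layer V-VI-like neurons Chd5 was at 72.5, 80.1 and 81.3 CPM in WT, at 60.3, 73.3, 77.4 and 73.0 CPM in Het, and at 57.5, 53.2 and 63.2 CPM in KO. KO was below WT in every embryo and overlapped with Het 1. The change was -0.37 ± 0.084 against WT (adjusted p = 0.0032, 24.8% called) and -0.26 ± 0.079 against Het (adjusted p = 0.0355, 10.9% called). Within the second prefix the latter was -0.25 ± 0.083 (adjusted p = 0.0572), and it was lost on leaving out any of 5 embryos, Het 2, 3 or 4 or KO 1 or 2 (-0.28 to -0.21). With the prefix as a covariate the change against WT was -0.33 ± 0.142 (adjusted p = 0.162).

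In progenitors Chd5 rested on few UMIs. In subventricular zone-like cells it was at 12.8 to 13.5 CPM in WT, at 8.0, 4.7, 8.9 and 11.8 CPM in Het, and at 6.0, 9.2 and 6.9 CPM in KO. The KO values were below all WT values, and the change was -0.82 ± 0.244 (adjusted p = 0.0274, 14.9% called). It was no longer called without any 1 of the WT embryos, without KO 1 or without KO 3 (-0.83 to -0.68), and was -0.13 ± 0.353 with the prefix as a covariate (adjusted p = 0.914). Markers of that class moved with it, with the 10 layer II-IV markers at 1328 to 1592 CPM in WT and 1150 to 1312 CPM in KO (10 of 10 lower), the 11 interneuron markers at 195.5 to 236.5 CPM and 186.3 to 200.1 CPM (10 of 11 lower), and the 13 radial glia markers at 1039 to 1291 CPM and 1463 to 1872 CPM (10 of 13 higher). The part of these markers in the change was not tested. In radial glia-like cells the values were 19.2, 15.1 and 10.1 CPM in WT, 8.4, 4.6, 6.0 and 14.4 CPM in Het and 7.0, 7.6 and 8.0 CPM in KO, with a change of -0.90 ± 0.318 that was not called (adjusted p = 0.0523, 20% called) and turned to 0.22 with the prefix as a covariate. On library totals Chd5 in erythroid-like cells moved with these values, from 6.0 to 13.4 CPM in WT to 0.0 to 2.6 CPM in KO, where it was too low to be tested, and its part in the result was not tested.

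The layer classes were not alike inside across genotypes, and marker levels in them differed. Of the layer II-IV-like cells, cluster 0, led by Pdzrn3, Unc5d and Sema3c and with Chd5 at 40.1 to 47.2 CPM in WT, held 35.6% to 40% in WT embryos, 41.2% to 47.1% in Het embryos and 51.8% to 59.6% in KO embryos. Cluster 13, led by Inhba and with Chd5 at 135.9 to 143.8 CPM in WT, held 11.4% to 16.2% in WT and 6.28% to 8.38% in KO. The summed level of the 10 layer II-IV markers in the class went from 3857 to 3875 CPM in WT to 2539 to 2684 CPM in KO, with 8 of 10 lower, and that of the 10 subventricular zone markers from 90.0 to 93.5 CPM to 162 to 196.9 CPM. The 11 interneuron markers, of the class with the highest Chd5, were also lower in both layer classes, at 132.5 to 152.6 CPM in WT against 48.9 to 61.4 CPM in KO in layer II-IV-like cells (10 of 11 lower) and 233.1 to 260.0 CPM against 102.1 to 157.8 CPM in layer V-VI-like cells (9 of 11 lower). The 11 layer V-VI markers of the latter went the other way, from 1828 to 1915 CPM in WT to 2341 to 2610 CPM in KO, with 6 of 11 higher. In the same class the 10 layer II-IV markers went from 2438 to 2573 CPM in WT to 1880 to 2148 CPM in KO (9 of 10 lower), the 13 radial glia markers from 570.6 to 681.2 CPM to 825.3 to 926.9 CPM (7 of 13 higher) and the 10 subventricular zone markers from 39.4 to 44.3 CPM to 59.1 to 83.0 CPM (4 of 10 higher). The part of these markers in the result was not tested. Within each of the 5 clusters of the layer classes every KO embryo had less Chd5 than every WT embryo. KO and WT embryos differ in prefix there as well. The KO range was 22.6 to 33.0 CPM in cluster 0, 56.7 to 68.6 CPM against 74.0 to 93.8 CPM in cluster 1, and 104.3 to 123.1 CPM in cluster 13. In the layer V-VI-like clusters it was 50.6 to 61.9 CPM against 68.5 to 77.3 CPM in cluster 3 and 59.0 to 67.1 CPM against 83.1 to 96.6 CPM in cluster 6.

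**Figure D4:**
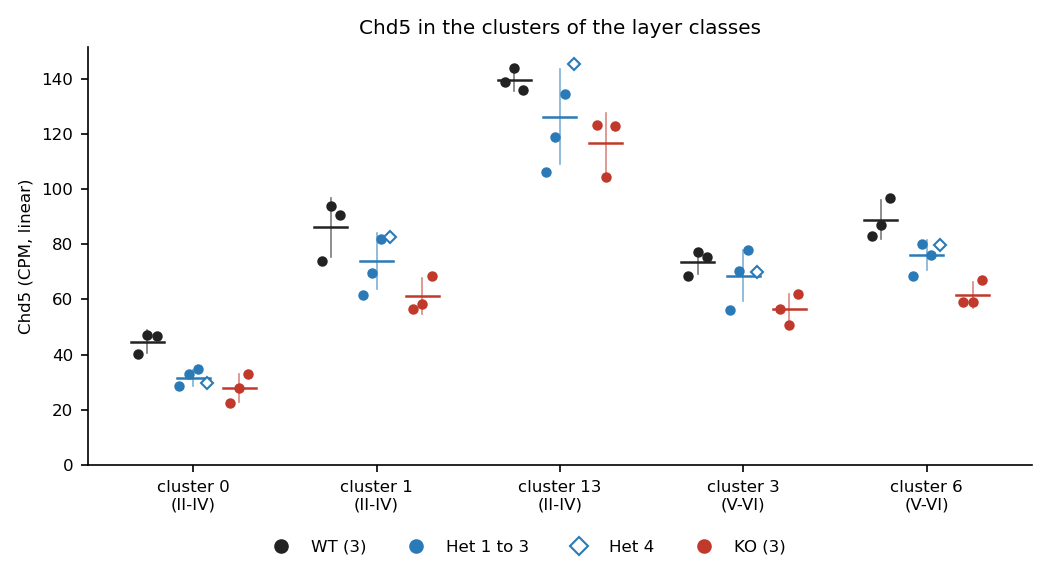
Chd5 in CPM (vertical axis, linear) within the 5 clusters of the layer II-IV-like (0, 1 and 13) and layer V-VI-like (3 and 6) classes. Points are embryos coloured by genotype, with Het 4 as an open diamond, and lines are the mean and SD of a group. In each cluster the 3 KO embryos lie below the 3 WT embryos, as in cluster 1 with 56.7 to 68.6 CPM against 74.0 to 93.8 CPM.

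Chd4 was lower in KO than in WT embryos in radial glia-like cells, and its change was not called in layer II-IV-like or layer V-VI-like neurons. In radial glia-like cells it was at 444.9, 409.0 and 435.3 CPM in WT, at 321.5, 349.5, 366.2 and 448.6 CPM in Het 1 to 4, and at 328.1, 279.2 and 337.7 CPM in KO. All KO embryos were below all WT embryos, while Het 1 to 3 lay nearer to KO and Het 4 at the level of WT. The log2 change of Chd4 in KO against WT was -0.38 ± 0.098 (adjusted p = 0.0107), and Chd4 was the only one of the 3 genes called in that class, where 20% of genes were called. The call was lost without KO 2 (-0.32, adjusted p = 0.0596). With the prefix as a covariate the change was -0.05 ± 0.130 (adjusted p = 0.913), and within the second prefix KO differed from Het by -0.11 ± 0.077 (adjusted p = 0.573, 3.36% called).

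The glial progenitor markers of the radial glia-like class moved with this result. The summed level of the 6 markers, Olig1, Olig2, Pdgfra, Sox10, Egfr and Bcan, was 650.1 to 784.7 CPM in WT embryos against 315.1 to 724.9 CPM in Het and 288.3 to 327.5 CPM in KO embryos, with 6 of 6 lower in KO and none at 0. The 13 radial glia markers summed to 18239 to 20253 CPM in WT and 14701 to 17022 CPM in KO, with 9 of 13 lower. The 9 pericyte and fibroblast markers were at 85.9 to 104.5 CPM in WT and 27.7 to 41.3 CPM in KO, with 7 of 9 lower, none higher, and 2 at 0 in WT and 3 in KO. Of the interneuron markers 10 of 11 were lower in KO, at 183.3 to 269.5 CPM in WT and 187.9 to 233.4 CPM in KO, and of the striatal inhibitory markers 10 of 13, at 80.4 to 138.3 CPM and 86.6 to 104.5 CPM. The 10 layer II-IV markers were at 926.8 to 1001 CPM in WT and 805.1 to 860.7 CPM in KO (7 of 10 lower). The 10 subventricular zone markers, of the class with the highest Chd4, went the other way. They were at 369.7 to 532.8 CPM in WT and 475.5 to 657.4 CPM in KO (8 of 10 higher). Layer I markers were higher in 7 of 9 and ganglionic eminence markers in 5 of 8, with overlap. The part of all these markers in the change of Chd4 was not tested. At the clustering resolution of 0.8, 150 cells led by Olig1, Pdgfra and Olig2 formed a cluster of their own. The radial glia-like class there also changed otherwise. It held a cluster of 1550 cells led by Fabp7 and another of 726 cells led by Tesc, Prox1 and Tac2. It was thus not the same class without the Olig1 cells. The change of Chd4 in that class of KO embryos was -0.38 ± 0.095 (adjusted p = 0.00774).

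In layer V-VI-like neurons Chd4 was higher in KO than in Het embryos. It was at 319.5, 291.7 and 318.1 CPM in WT, at 249.9, 247.4, 254.2 and 324.9 CPM in Het 1 to 4, and at 324.0, 318.4 and 355.0 CPM in KO. KO lay above Het 1 to 3 without overlap and overlapped with WT, and Het 4 was at the level of WT and KO. Chd4 rose by 0.33 ± 0.078 log2 in KO against Het (adjusted p = 0.00964) and by 0.43 ± 0.043 within the second prefix (adjusted p = 1.9e-05, 11.7% called). Without KO 3 the former was 0.29 and not called (adjusted p = 0.0593). The subventricular zone markers in this class, whose own class has the highest Chd4, were at 42.4 to 46.9 CPM in Het against the 59.1 to 83.0 CPM of KO, and the radial glia markers at 611.6 to 747.3 CPM against 825.3 to 926.9 CPM, and their part in the rise was not tested. Against WT the KO change was 0.15 ± 0.084 (adjusted p = 0.172), and 0.52 ± 0.077 with the prefix as a covariate (adjusted p = 0.000309).

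In layer II-IV-like neurons Chd4 was at 379.3, 350.6 and 373.2 CPM in WT, at 320.8, 306.3, 320.8 and 387.7 CPM in Het, and at 381.3, 357.1 and 399.1 CPM in KO. KO again lay above Het 1 to 3 and overlapped with WT. The change in KO was 0.19 ± 0.066 against Het (adjusted p = 0.0643) and 0.27 ± 0.047 within the second prefix (adjusted p = 0.00128). It was 0.08 ± 0.071 against WT (adjusted p = 0.359), and 0.37 ± 0.077 with the prefix as a covariate (adjusted p = 0.00423). The same order held in single clusters, where Chd4 was at 283.0 to 288.8 CPM in Het 1 to 3 and 321.9 to 349.9 CPM in KO in cluster 1, at 262.5 to 269.0 CPM and 346.7 to 370.3 CPM in cluster 3, and at 211.4 to 219.6 CPM and 255.3 to 309.1 CPM in cluster 6. In clusters 0 and 13 the KO embryos overlapped with Het 1 to 3. Markers in the layer II-IV-like class moved as well. The subventricular zone markers were at 115.5 to 139.9 CPM in Het and 162.0 to 196.9 CPM in KO. The layer II-IV markers were at 3139 to 3506 CPM in Het and 2539 to 2684 CPM in KO. Their part in the change of Chd4 was not tested.

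In subventricular zone-like cells Chd4 was at 520.4 to 554.3 CPM in WT embryos, 496.7 to 591.8 CPM in Het embryos and 516.8 to 551.3 CPM in KO embryos, with full overlap and a KO change of 0.06 ± 0.068 against WT (adjusted p = 0.635). Over all cells Chd4 was at 334.4 to 363.7 CPM in WT embryos, 295.7 to 374.1 CPM in Het embryos and 335.4 to 372.7 CPM in KO embryos, with a KO change of 0.04 ± 0.073 (adjusted p = 0.72). That sum covers classes in which Chd4 was lower in KO and others in which it was not, and its sign was negative, at -0.08, with the shares of clusters fixed to those of WT.

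**Figure D5:**
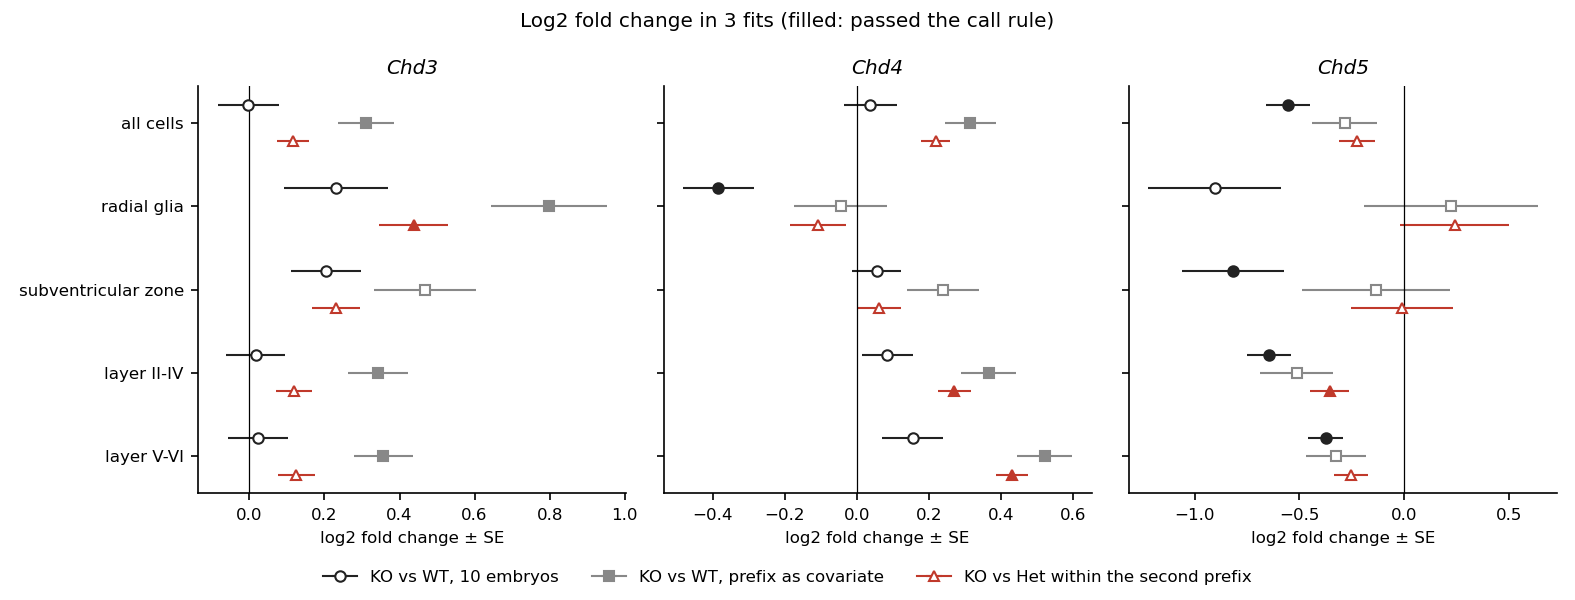
Log2 fold changes of Chd3, Chd4 and Chd5 (horizontal axes, bars are standard errors) over all cells and in the pallial classes, for KO against WT with all 10 embryos (circles), the same with the prefix as a covariate (squares) and KO against Het within the second prefix (triangles), with filled symbols for calls. With all embryos, Chd5 lies below 0 in every row, from -0.90 in radial glia-like to -0.37 in layer V-VI-like cells, and with the prefix as a covariate it is not called in any row.

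The difference of the KO effect between classes was tested directly, on the adjusted p alone, with the embryo as a block and a spread estimated over all 11 classes. For Chd4 the KO change against WT was higher by 0.48 ± 0.119 log2 in subventricular zone-like than in radial glia-like cells (adjusted p = 0.016, 1.34% of 15371 genes called), by 0.46 ± 0.118 in layer II-IV-like cells (adjusted p = 0.00672, 6.12% called) and by 0.55 ± 0.118 in layer V-VI-like cells (adjusted p = 0.000695, 7.86% called). The first was lost without WT 2, WT 3 or KO 2 (0.49, 0.48 and 0.43). Within the second prefix the change of KO against Het was higher than in radial glia-like cells by 0.38 ± 0.105 in layer II-IV-like cells (adjusted p = 0.0474, 1.42% called) and by 0.55 ± 0.105 in layer V-VI-like cells (adjusted p = 0.00109, 2.15% called), and by 0.20 ± 0.106 in subventricular zone-like cells (adjusted p = 0.889, 0.101% called). In the fit over all 11 classes and all embryos no difference between classes was called for Chd3 or Chd5, nor for any of the 3 in Het against WT. The KO differences called 1.34% to 7.86% of genes there, and the Het differences only 0.00651% to 0.403%. A fit of only the 2 classes compared, with the embryo as a block and chosen after seeing the data, gave smaller errors. It called Chd5, whose KO change was 0.27 ± 0.056 higher in layer V-VI-like than in layer II-IV-like cells (adjusted p = 0.00222, 16.9% of genes called), against 0.29 ± 0.201 with all classes. Chd5 was lower in layer V-VI-like than in layer II-IV-like cells in each WT embryo and higher in each KO embryo. That fit also called Chd3, whose KO change was 0.21 ± 0.062 lower in layer II-IV-like than in subventricular zone-like cells (adjusted p = 0.0281, 8.64% called). Within the second prefix, fitted over all classes, KO against Het differed between the same classes by 0.11 ± 0.181 for Chd5 and -0.14 ± 0.130 for Chd3. Neither was called there (0.879% and 0.523% of genes called). In the fit of only the 2 classes compared, the 3 differences of Chd4 against radial glia-like cells were called too (3.79%, 12.5% and 14.2% of genes called). None of the 3 genes was called in Het there, where 0.0403% to 2.1% of genes were called.

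The share of Chd4 among the UMIs of the 3 genes does not use the library total, but it moves with Chd3 and Chd5 as well as with Chd4. In radial glia-like cells it was 69% to 71% in WT embryos, 65.9% to 73.4% in Het embryos and 60.1% to 63.8% in KO embryos, so that KO lay below both other groups. Within the second prefix it was Chd3 that was called in that class, by 0.44 in KO against Het, and not Chd4. In layer V-VI-like neurons it was 29.2% to 30.2% in WT embryos, 27.1% to 28.2% in Het embryos and 31.2% to 33.2% in KO embryos, so that KO lay above both and Het below both. In layer II-IV-like neurons the shares were 31.4% to 32.1%, 30.5% to 31.1% and 33% to 34.6%. Het 4 was at 66%, 28.2% and 30.5% in these classes.

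In the classes other than radial glia-like, subventricular zone-like, layer II-IV-like and layer V-VI-like cells the calls were few. Chd5 in striatal inhibitory-like neurons was at 91.5, 95.4 and 107.8 CPM in WT, at 72.0, 63.8, 74.6 and 85.4 CPM in Het and at 74.3, 67.9 and 80.2 CPM in KO. WT lay above every embryo of the other groups, Het 4 included. The changes were -0.37 ± 0.086 in Het (adjusted p = 0.0319, 2.22% of genes called) and -0.37 ± 0.093 in KO (adjusted p = 0.0108, 16.7% called). The prefix as a covariate took both below the call, at -0.19 and -0.11. The Het call was lost without any 1 of the WT embryos or of Het 1 to 3, and the KO call without WT 3 or KO 2. Interneuron-like cells had Chd5 at 89.2 to 105.7 CPM in KO, below the WT embryos, but the change of -0.43 ± 0.167 was not called (adjusted p = 0.117, 9.81% called), except without Het 1 or Het 4, and was 0.13 with the prefix.

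Chd4 was lower in KO in the ganglionic eminence-like class, at 355.6, 353.7 and 361.8 CPM against 433.5, 443.9 and 468.1 CPM in WT, with Het 1 to 3 between them at 379.8 to 393.9 CPM and Het 4 at 432.4 CPM. The change was -0.29 ± 0.062 (adjusted p = 0.0104, 7.55% called), which was lost without WT 3 or KO 2 and was -0.16 with the prefix (adjusted p = 0.776). Layer I-like cells had it at 248.4, 270.6 and 272.8 CPM in KO and at 333.2, 349.0 and 332.9 CPM in WT, with a change of -0.34 ± 0.095 (adjusted p = 0.04, 5.4% called). That call was lost on leaving out any embryo but Het 2 or Het 4, and the change was 0.026 with the prefix. There Het 1 to 3 lay at the level of KO, at 243.5 to 267.9 CPM, and Het 4 at the level of WT, at 335.5 CPM. Chd3 was called in microglia-like cells, at -1.59 ± 0.307 (adjusted p = 0.0156, 5.45% called), from 58 to 97 UMIs in WT and 7 to 23 UMIs in KO embryos. It was not called without WT 3, without KO 2 or with the prefix (-2.14, adjusted p = 0.143), and the part of free RNA in it was not tested. In KO against Het no change of Chd4 was called in the other named neuronal classes, with adjusted p = 0.978 in interneuron-like, 0.984 in striatal inhibitory-like and 0.883 in layer I-like cells. Those comparisons called few genes, 0.671%, 0.471% and 0.95% of those tested. The unnamed clusters were not tested. After thinning, Chd4 was found in 60.1% ± 1.55 (SD, n = 3) of their cells in WT, 53.6% ± 4.32 (n = 4) in Het and 59.4% ± 2.86 (n = 3) in KO. Het 1 to 3 were at 50.7%, 51.6% and 52.1%, and the highest Het embryo was at 60.0%.

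Chd3 was not called in any comparison between genotypes in the pallial classes, also not in KO against Het, which called 5.5% of genes over all cells, 3.11% in radial glia-like and 2.8% in subventricular zone-like cells. Over all cells it was at 668.2, 605.5 and 648.4 CPM in WT, at 582.4, 560.2, 570.3 and 725.9 CPM in Het 1 to 4, and at 636.9, 597.3 and 627.0 CPM in KO. The groups overlapped, with Het 1 to 3 below and Het 4 above every WT and KO embryo. The KO change against WT was -0.003 ± 0.081 over all cells (adjusted p = 0.982), 0.20 ± 0.093 in subventricular zone-like cells (adjusted p = 0.147), 0.02 ± 0.079 in layer II-IV-like and 0.02 ± 0.080 in layer V-VI-like neurons. In radial glia-like cells Chd3 was at 181.1, 151.9 and 177.0 CPM in WT, at 158.0, 143.7, 126.6 and 217.1 CPM in Het and at 211.2, 174.7 and 183.8 CPM in KO. KO overlapped with WT there, with a change of 0.23 ± 0.138 (adjusted p = 0.261). It was 0.51 once the cells with the highest doublet scores had been removed (adjusted p = 0.0034). That removal took a preset share of cells, 7.42% to 8.31% in WT and 4.8% to 5.845% in KO embryos. The part of this unequal share in the change was not tested. The change was 0.80 with the prefix as a covariate (adjusted p = 0.00588), and within the second prefix KO was above Het by 0.44 ± 0.092 (adjusted p = 0.016). With the prefix as a covariate Chd3 was also called higher in KO than in WT over all cells (0.31, adjusted p = 0.028) and in layer II-IV-like (0.34) and layer V-VI-like neurons (0.36). The calls by class with the covariate are not set beside the share of all genes called in that fit. The values with the covariate rest on 1 embryo, since only Het 4 against Het 1 to 3 sets the prefix term. Het 4 had the highest Chd3 of the Het embryos in each of these classes and over all cells.

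None of the 3 ATPases was called in Het against WT in the 4 pallial classes, which called 2.1% of genes in radial glia-like, 0.792% in subventricular zone-like, 6.85% in layer II-IV-like and 2.5% in layer V-VI-like cells. Those shares depended on single embryos. The 253, 89, 975 and 343 genes called became 650, 442, 1633 and 1006 without Het 4, and as few as 29 without Het 1, 9 without Het 2, and 419 and 118 without WT 3. The changes of Chd5 were -0.72 ± 0.290, -0.56 ± 0.232, -0.25 ± 0.096 and -0.11 ± 0.077 in these classes, with unadjusted p = 0.0241, 0.025, 0.0195 and 0.179. Those of Chd4 were -0.19 ± 0.091, 0.04 ± 0.064, -0.11 ± 0.066 and -0.18 ± 0.078. Without Het 4, calls appeared for Chd5 over all cells (-0.33) and in radial glia-like cells (-1.15), and for Chd4 in radial glia-like (-0.28) and layer V-VI-like cells (-0.28, adjusted p = 0.0239, 0.0154, 0.0377 and 0.00163). Within the first prefix, where Het 4 is the lone Het embryo and is assumed to vary as the WT embryos do, the change of Chd5 over all cells was -0.06.

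Several partners of the ATPases in NuRD rose. Their list was drawn up with earlier results of these data known, so its counts are a description. Gatad2b is the targeted gene, and the paper had already reported higher Cdk2ap1 in Het and KO from the same series. Of 12 other subunits, 4 rose and 1 fell in KO against WT over all cells, where 12% of all genes rose and 12.5% fell, with a median log2 change of 0.16 against -0.01 over all genes tested. The risers were Cdk2ap1, a small subunit also known as Doc1, by 1.06 ± 0.166, the deacetylase Hdac1 by 0.54 ± 0.040, the paralog Gatad2a by 0.45 ± 0.056 and the methyl-CpG reader Mbd2 by 0.26 ± 0.048 (adjusted p = 0.000785, 6.98e-06, 0.000214 and 0.00192), and the gene that fell was Gatad2b. Hdac1 (0.63), Gatad2a (0.60) and Mbd2 (0.42) were also called with the prefix in the fit, and Cdk2ap1 was not, at 0.35 ± 0.145 (adjusted p = 0.166). In Het against WT, which called 2.98% of genes, Cdk2ap1 (0.62 ± 0.156) and Hdac1 (0.26 ± 0.038) rose and Gatad2b fell, and with the prefix Hdac1 was called (0.32) and Cdk2ap1 was not (0.059). By class, Gatad2a rose in KO in subventricular zone-like (0.36, 14.9% of genes called), layer II-IV-like (0.51, 30.6%) and layer V-VI-like cells (0.54, 24.8%), and was called in each with the prefix. Hdac2 rose by 0.30 in radial glia-like (20% of genes called) and layer II-IV-like cells, of which the latter was called with the prefix. Mta1 rose by 0.40 in radial glia-like and 0.28 in subventricular zone-like cells, and neither was called with the prefix (0.37 and 0.12). Library totals in place of TMM also ended calls. Over all cells these were Mbd2 in KO and Hdac1 and Cdk2ap1 in Het. By class they were, in KO, Hdac2 in radial glia-like and Gatad2a and Mta1 in subventricular zone-like cells.

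Of the 7 other CHD proteins, Chd7 and Chd2 rose and Chd6 fell in KO against WT over all cells, with log2 changes of 0.46 ± 0.083, 0.29 ± 0.065 and -0.26 ± 0.067 and a median over the list of -0.05, in the comparison that called 24.5% of genes. Chd7 (0.69) and Chd2 (0.40) were also called with the prefix in the fit, and Chd6 was not (-0.0081). Chd7, the gene of CHARGE syndrome, rose by 1.22 ± 0.111 in layer II-IV-like and by 0.82 ± 0.102 in layer V-VI-like neurons (adjusted p = 1.2e-06 and 2.52e-05), and was called in both classes with the covariate. Of 10 other remodeler ATPases only Srcap, which exchanges histone H2A.Z, was called over all cells, at -0.30 ± 0.069 (adjusted p = 0.00628, 24.5% of genes called), with a list median of 0.03. It was also called in Het, at -0.27, and in neither with the prefix (-0.062 in KO and -0.092 in Het). Smarca2, an ATPase of BAF complexes, was called lower in KO in radial glia-like (-0.36), subventricular zone-like (-0.74) and layer II-IV-like cells (-0.29) and higher in layer V-VI-like neurons (0.52), where 20%, 14.9%, 30.6% and 24.8% of genes were called. With the prefix the call was lost in radial glia-like cells (-0.26) and the other 3 were called (-0.87, -0.38 and 0.52). Of 4 partners of Chd4 in the ChAHP complex and among the HP1 proteins, Cbx3 rose in KO by 0.61 ± 0.106 (adjusted p = 0.0014) and in Het by 0.42 ± 0.10 (adjusted p = 0.0433), and Adnp, Cbx1 and Cbx5 were not called over all cells. The KO comparison called 24.5% and the Het comparison 2.98% of genes. The paper had already listed Cbx3 as raised in Het and KO of the same series. Neither change of Cbx3 was called with the prefix, at 0.19 ± 0.101 in KO (adjusted p = 0.298) and 0.085 ± 0.083 in Het (adjusted p = 0.765).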

How the data were processed

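Single-cell 3′ libraries of the E16.5 cortex of 3 WT, 4 Het and 3 KO embryos were used. Whole UMI counts per gene and barcode were deposited, which the authors had made on mm10 without normalization. The submitters' processing notes name Cell Ranger 6.0.2 and the methods another release. The deposited counts were filtered at 1000 UMIs and 10% mitochondrial UMIs per cell. The members and gene lists were chosen with earlier results of these data known.

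Clusters came from Seurat 5.3.0 (R 4.3.3) after integration of the embryos at a resolution of 0.4, without Chd3, Chd4 and Chd5 among the variable genes. A cluster took the name of a class with a mean marker z-score of at least 0.5, at least 3 markers detected in 10% of cells and the most markers among the top 10 genes. With none there, it was named only for its best score and with enough UMIs, and 4 clusters stayed unnamed. Doublets were scored with scanpy 1.11.5 and kept in the main analysis. As an alternative the cells with the highest scores were removed, at 4.8% to 8.31% of the cells kept. That share was set by the number of barcodes, and the scorer's own threshold marked 0.0341% to 2.53%. Library pairs shared 4 to 19 barcodes, at most 0.325% of the smaller library. Endothelial-like cells were left out, with under 20 cells in Het 1 and in 2 KO embryos.

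UMIs were summed per embryo and class and tested with edgeR 4.0.16 (TMM, filterByExpr, quasi-likelihood F-test, no covariate, all 10 embryos). WT classes were compared with the embryo as a block. The differences between classes were fitted over all 11 classes with the embryo as a block and 1 shared dispersion estimate, and again on only the classes compared with dispersions per gene. A call needs an adjusted p under 0.05 over all genes and an absolute log2 fold change over 0.25. The scripts were tested on simulated data. limma 3.58.1 and DESeq2 1.42.0 gave alternatives. Named genes were the 3 ATPases, Gatad2b, list members called over all cells or with the largest changes in a class, and the 5 most similar genes.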

Additional observations from a re-analysis of the deposited data

Results flagged for a closer look

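Het 4 stood far from the other 3 Het embryos in 4 of 30 groups of 4 values that were examined, with a gap above the critical value of Dixon's test. They were Chd3 over all cells at 725.9 CPM, Chd4 over all cells at 374.1 CPM, Chd3 in layer II-IV-like neurons at 809.8 CPM and Chd4 in layer V-VI-like neurons at 324.9 CPM. Chance marks about 1 group in 20, and the groups share libraries. Het 4 carries the library prefix of the WT embryos, and the part of the prefix in these values was not tested.

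The KO change of Chd4 differed between cell classes. Against WT it was above that of radial glia-like cells by 0.48 log2 in subventricular zone-like, 0.46 in layer II-IV-like and 0.55 in layer V-VI-like cells (edgeR, adjusted p = 0.016, 0.00672 and 0.000695). Against Het within the second prefix it was above that of radial glia-like cells by 0.38 in layer II-IV-like and 0.55 in layer V-VI-like cells (adjusted p = 0.0474 and 0.00109).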

How the results depend on the processing

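Values are log2 fold changes, and a call needs an adjusted p under 0.05 and a size over 0.25. Most alternatives kept the direction and the side of the threshold, in 296 of 342 values for Het against WT, 284 of 327 for KO against WT, 307 of 342 for KO against Het, 221 of 234 for the WT classes and 411 of 432 for the differences between classes. Chd5 was lower in KO than in WT in all alternatives run over all cells and in both layer classes, and was called in all but the fit with the prefix. The fits within a prefix, the within-prefix test of the differences and the fit of only the 2 classes compared were chosen after seeing the data. The last called Chd5 between the layer classes (0.27) and Chd3 between layer II-IV-like and subventricular zone-like cells (-0.21) and turned Chd4 between these 2 to 0.0096 in KO. The cause of a change was not tested unless it is given. Chd5 in the progenitor classes rests on 14 to 73 UMIs per embryo, at levels that overlap with erythroid-like cells.

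With the prefix as a covariate, Chd3 in Het against WT turned to 0.19 over all cells, 0.35 in radial glia-like and 0.23 in both layer classes, and Chd4 to 0.096, 0.057, 0.099 (layer II-IV) and 0.090 (layer V-VI). Chd3 in KO against WT was 0.31 over all cells, 0.80 in radial glia-like, 0.34 in layer II-IV-like and 0.36 in layer V-VI-like cells, and Chd4 was 0.32 over all cells, -0.045 in radial glia-like, 0.37 in layer II-IV-like and 0.52 in layer V-VI-like cells. Chd5 in KO against WT was -0.28 over all cells, 0.22 in radial glia-like, -0.13 in subventricular zone-like, -0.51 in layer II-IV-like and -0.33 in layer V-VI-like cells, none of them called, and 0.25 in KO against Het in radial glia-like cells. Within the first prefix, where Het 4 is assumed to vary like the WT embryos, Chd3 in Het against WT was 0.19 over all cells, 0.36 in radial glia-like and 0.23 in both layer classes, and Chd4 was 0.095, 0.063, 0.098 (layer II-IV) and 0.091 (layer V-VI). Within the second prefix Chd5 in KO against Het was 0.24 in radial glia-like cells. In KO against WT the prefix also turned Chd5 in interneuron-like cells to 0.13, Chd4 in layer I-like cells to 0.026 and Cdk2ap1 to -0.069 in radial glia-like and -0.038 in subventricular zone-like cells. Library totals for the listed partner genes, added after seeing the data, took below the call over all cells Mbd2 in KO (0.22) and Hdac1 (0.22) and Cdk2ap1 (0.58) in Het, and in KO Hdac2 in radial glia-like (0.24) and Gatad2a (0.31) and Mta1 (0.23) in subventricular zone-like cells.

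With library totals in place of TMM, Chd4 was -0.0049 over all cells in KO against WT and -0.0030 in subventricular zone-like cells in KO against Het, Chd3 in KO against WT was -0.025 in layer II-IV-like and -0.030 in layer V-VI-like cells, and Chd5 in radial glia-like cells was -0.96 and called. The difference of the KO change was then 0.034 for Chd4 between layer II-IV-like and subventricular zone-like cells and -0.0054 for Chd3 between the layer classes. With cluster shares fixed to WT, Chd4 was -0.078 in KO against WT. DESeq2 called Chd5 in KO against Het over all cells (-0.30). At most 5% mitochondrial UMIs gave Chd3 in Het 0.019 in radial glia-like cells and Chd5 in KO -0.66 in subventricular zone-like cells, not called. Without the cells of highest doublet score Chd3 in radial glia-like cells was 0.23 in Het and 0.51 in KO, and Chd5 was 0.33 between the WT progenitor classes. Chd5 in radial glia-like cells was called in KO against WT without a filter on low counts (-0.90), with only these 2 groups (-0.90) and at a resolution of 0.8 (-1.05). That resolution also gave Chd3 0.0014 in layer II-IV-like cells in Het, -0.043 in layer V-VI-like cells in KO, and in WT 0.21 for Chd4 between the progenitor classes and 0.045 for Chd5 between the layer classes. Without integration, layer V-VI-like cells gave -0.0012 for Chd3 and 0.28 for Chd4 in KO against WT, the latter called, and Chd5 was 0.048 between the layer classes. Chd4 between the layer classes of WT was -0.23 with DESeq2, with its size factors and without a filter and -0.25 with library totals, not called. With all 10 embryos, Chd5 was 0.016 between the layer classes, and Chd4 was 0.026 in layer II-IV-like and -0.24 in layer V-VI-like against radial glia-like cells.

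Leaving out 1 embryo at a time gave these ranges for results that changed, beside those given with the results above. In KO against WT they were, over all cells, -0.045 to 0.025 for Chd3 and -0.0039 to 0.062 for Chd4, in radial glia-like cells -0.43 to -0.32 for Chd4 and -1.13 to -0.70 for Chd5, in subventricular zone-like cells -0.98 to -0.68 for Chd5, and for Chd3 -0.032 to 0.059 in layer II-IV-like and -0.015 to 0.056 in layer V-VI-like cells. Chd5 in radial glia-like cells was called without WT 3 (-1.13) and without Het 2, 3 or 4. In Het against WT they were -0.33 to -0.18 for Chd5 over all cells, for radial glia-like cells -0.21 to 0.059 for Chd3, -0.28 to -0.12 for Chd4 and -1.15 to -0.51 for Chd5, -0.28 to -0.14 for Chd4 in layer V-VI-like cells, -0.060 to 0.13 for Chd3 and -0.0048 to 0.082 for Chd4 in subventricular zone-like cells, and for Chd3 -0.099 to 0.023 in layer II-IV-like and -0.10 to 0.032 in layer V-VI-like cells. In KO against Het they were, over all cells, -0.0057 to 0.12 for Chd3 and -0.39 to -0.23 for Chd5, which was called without Het 1, then 0.17 to 0.44 for Chd3 in radial glia-like and 0.16 to 0.27 for Chd4 in layer II-IV-like cells, both called without Het 4, -0.37 to 0.24 for Chd5 in radial glia-like, -0.024 to 0.062 for Chd4 in subventricular zone-like, and for Chd3 -0.021 to 0.12 in layer II-IV-like and -0.014 to 0.12 in layer V-VI-like cells. In WT they were -0.24 to 0.045 for Chd5 between the progenitor classes and -0.26 to -0.25 for Chd4 between the layer classes, which was not called without WT 1. For subventricular zone-like minus radial glia-like cells, the KO change differed by -0.031 to 0.10 for Chd3, 0.43 to 0.52 for Chd4 and -0.040 to 0.33 for Chd5, and the Het change by -0.0059 to 0.36 for Chd5. Other differences were -0.023 to 0.0055 for Chd4 in KO between layer II-IV-like and subventricular zone-like cells, and in Het, for Chd3, -0.14 to 0.015 between layer V-VI-like and subventricular zone-like cells, -0.00060 to 0.022 between the layer classes, -0.041 to 0.098 and -0.041 to 0.10 between the layer classes and radial glia-like cells, and for Chd4 -0.027 to 0.023 between layer V-VI-like and radial glia-like cells.

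The replicate numbers do not pair the embryos, with correlations of same-numbered embryos from -0.185 to 0.125. With the replicate number as a block, a fit in which Het 4 has a block of its own, Chd5 was -0.34 over all cells in Het against WT and -0.91 in radial glia-like cells in KO against WT, both called, and 0.26 in radial glia-like cells in KO against Het, and in subventricular zone-like cells of Het Chd3 was -0.023 and Chd4 -0.0074. Over all genes and all cells, Het against WT called 525 genes, 1850 with the block, 1829 without Het 4, fewer than 525 without any 1 of the other embryos and 74 without WT 1, 1002 with DESeq2, 41 with the prefix as a covariate and 2 within the first prefix, and KO against WT called 4326 and, with the prefix, 1467. KO against WT in radial glia-like cells called 2404 genes and, without WT 2 or KO 2, as few as 1520. KO against Het called 970 over all cells and, without KO 2 or KO 3, as few as 528. Leaving out any KO embryo took its 374 calls in radial glia-like cells to as few as 144 and its 315 in subventricular zone-like cells to as few as 157.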
